A study of Mus musculus with 4 samples.

Results

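Imprinted genes are transcribed mainly from the copy inherited from 1 parent. In the brain RNA described here they were taken as the rows of the deposited table whose gene symbol was in a list of 42 imprinted genes, and 41 of the 42 were found among 20421 genes. Expression of Phlda2 was not analysed here. The tissue was whole brain of C57BL/6 mouse embryos at embryonic day 15 (E15), from animals labelled WT and animals labelled FOXM1f/+;Nestin-Cre. FOXM1 is a transcription factor of the cell cycle, the series' title speaks of the human gene, and Nestin-Cre drives Cre recombinase in neural progenitors, whose progeny inherit the recombined allele. Of 4 samples, 2 carry each genotype label, and the WT samples are titled by an allele each, 1 by nestin and 1 by foxm1. The table has 1 column of read counts per genotype, called the transgenic and the WT library below, and which sample or pool each column holds is not stated. There were no replicates: each ratio compares 2 libraries, its 95% interval covers counting error only, and no difference was tested against the spread between animals.

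Imprinting rests on DNA methylation that is laid down in only 1 of the parental germ lines and is kept on that copy in the embryo. Most imprinted genes lie in domains, each governed by 1 such control region, where protein-coding genes sit beside long noncoding RNAs expressed from the opposite parental copy. Many act on growth: among paternally expressed genes are growth promoters such as Igf2, and among maternally expressed genes are growth inhibitors such as Cdkn1c. The brain is rich in imprinted transcripts, and several domains switch alleles or isoforms in neurons. The reads were not assigned to parental copies here, so the allele given for each gene is background, and a total that stays level can hide opposite changes of the copies.

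The reads numbered 17856653 for the transgenic and 17543705 for the WT library. Mouse Foxm1 had 1289 and 1139 reads, which does not measure a human gene. The libraries differed in sex content, with 9628 against 5 reads of Xist and 0 against 1266 reads of the Y-linked gene Eif2s3y, so genotype and sex cannot be told apart. Neuronal markers were abundant in both: the neuronal tubulin Tubb3 had 51844 and 51704 reads, and Mapt, a microtubule-binding protein of axons, 14772 and 18290. The 12 neuronal genes summed to 8135 against 8696 CPM (counts per 1000000 reads; the transgenic value comes first in all such pairs). Of 12 listed midbrain and hindbrain genes only 3 had a row, and of 9 pituitary genes only 1, although genes with 2 reads in all were kept. Reads of those found were few in both, with 65 and 53 of Gbx2 and 10 and 7 of Pax5, and the pituitary hormone gene Tshb had 4 and 6. These numbers were not compared with other data of whole brain, and which regions the tissue held was not tested.

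Imprinted genes gave 0.824% (exact 95% interval 0.820 to 0.828) of all reads in the transgenic library and 0.804% (0.800 to 0.808) in the WT library. That order rests on Nnat: without it the sums were 3624 against 3767 CPM. Nnat, which encodes neuronatin, a small membrane protein of developing neurons, had 82445 and 74893 reads, which is 4616 and 4268 CPM. Nnat alone made up 56.0% (55.8 to 56.3) and 53.1% (52.9 to 53.4) of the reads of imprinted genes. Levels of different genes were compared as CPM per kilobase of exonic length, averaged over the 2 libraries. On this scale Nnat stood at 2429, rank 7 among 20388 genes. Ndn, which encodes the growth suppressor necdin of postmitotic neurons, followed at 145, then Blcap at 49.2, the noncoding RNA Meg3 at 47.6 and Inpp5f at 32.6. At the low end were Rtl1 at 0.628, Commd1 at 0.504, Airn at 0.235, Nespas at 0.189, Kcnq1ot1 at 0.183, Slc22a18 at 0.134 and Ascl2 at 0.0869. This scale divides by all exonic bases, including those shared with other genes, 38.5% for Nespas and 11.9% for Commd1. Per unshared kilobase, Nespas stood at 0.232 in the transgenic and 0.383 in the WT library, and Commd1 at 0.589 and 0.556. The list thus ran from 1 of the most abundant transcripts of this tissue to genes with single reads.

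**Figure D1:**
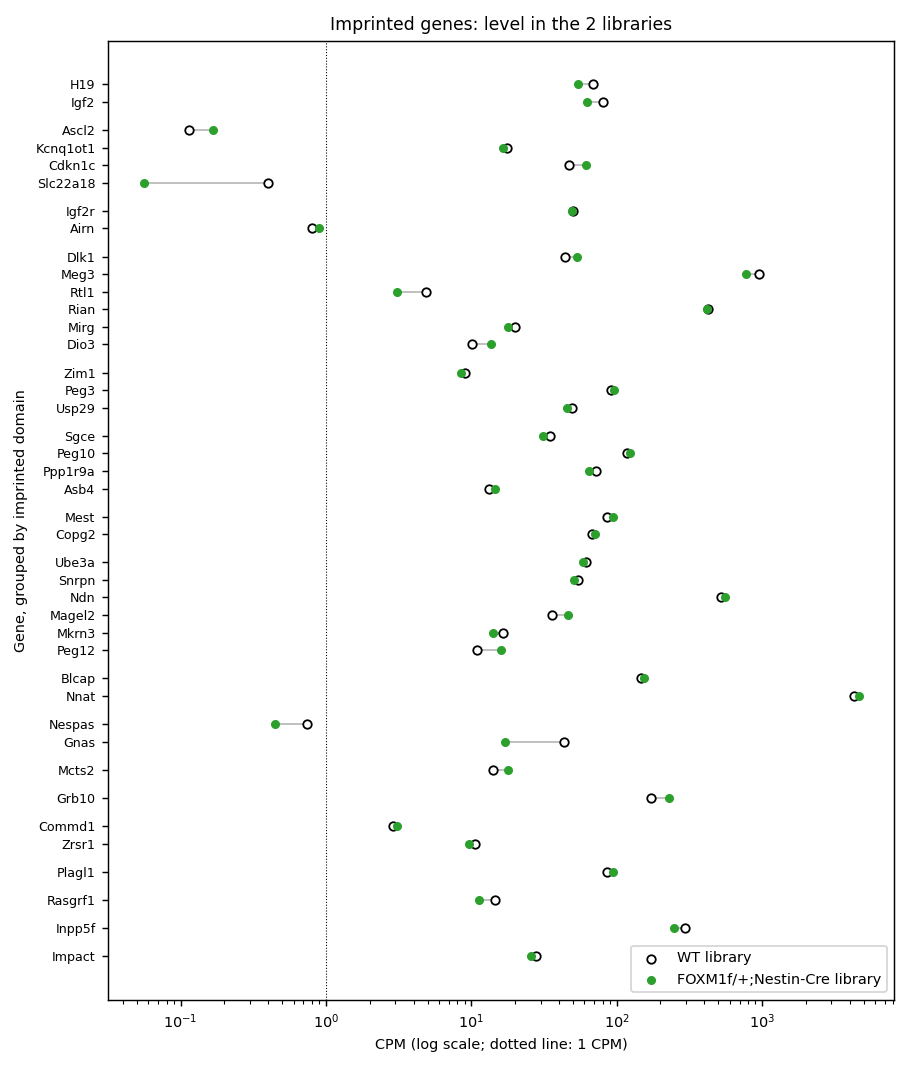
Level of the 41 imprinted genes in CPM (log scale) in the WT (open circles) and the FOXM1f/+;Nestin-Cre library (green), grouped by imprinted domain. The circles of most genes lie close together, Gnas is the widest gap above 10 CPM, and 4 genes lie left of the dotted line at 1 CPM.

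A mean of at least 1 CPM was reached by 37 of the 41 genes. Below it were Ascl2, a placental transcription factor, with 3 reads in the transgenic and 2 in the WT library, and Airn, the noncoding RNA that silences Igf2r, with 16 and 14. Nespas, an antisense RNA of the Gnas domain, had 8 and 13 reads. Slc22a18, a transporter-like protein, had 1 and 7 reads, a ratio of 0.140 with an interval of 0.00311 to 1.09. These 4 genes are near the limit of what these libraries can resolve and enter no count below.

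Among the 37 genes, 0 had a level at least 1.5-fold higher in the transgenic library, and 2, Gnas and Rtl1, were 1.5-fold lower or more. Of all 14557 genes past the same minimum, 2.53% stood 1.5-fold or more above their WT level and 5.23% as far below it. The 2 lower genes are 5.41% of the imprinted genes, a share near that background and therefore no result about the group. The interval of the ratio lay wholly above 1 for 11 genes (29.7%), against 16.5% of all genes, and wholly below 1 for 8 (21.6%), against 19.2%. Whether an interval excludes 1 depends on reads, and the imprinted genes had more of them, with a median of 49.7 CPM against 26.8 CPM for all genes. The median log2 ratio (transgenic over WT) was -0.02 for the imprinted genes and -0.01 for all genes; with the TMM and RLE scalings of the libraries, which shift all genes by 0.02 and 0.03, the former was 0.000397 and 0.00989. Imprinted genes as a group were thus centred where the other genes were, with members on both sides. The authors' deposited table marks 3 imprinted genes as significant, all lower: Gnas, Rtl1 and Slc22a18. The authors' deposited table gives Gnas an adjusted p-value of 3.58e-45, Rtl1 0.0227 and Slc22a18 0.0605, each for 1 column against 1 column.

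**Figure D2:**
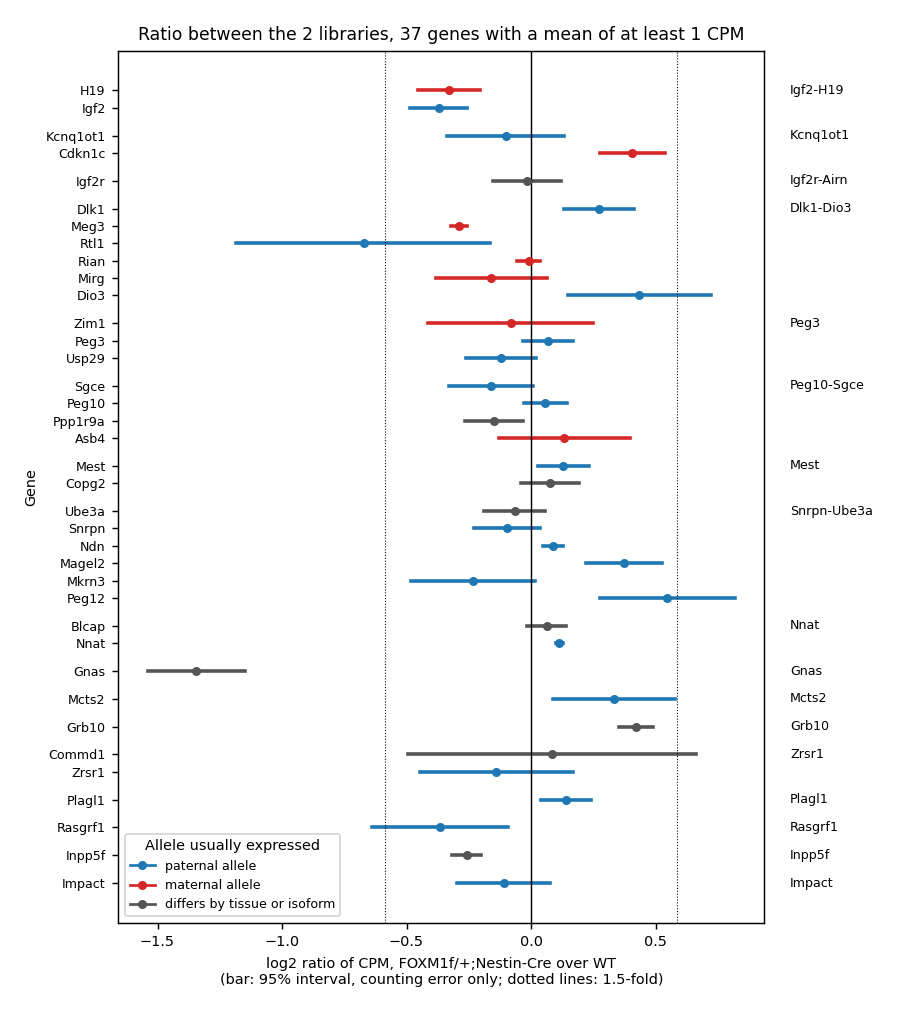
Log2 ratio of CPM, FOXM1f/+;Nestin-Cre over WT, for the 37 imprinted genes that averaged at least 1 CPM, with 95% counting intervals, coloured by the allele usually expressed and grouped by domain (names at right). Gnas, at -1.34, and Rtl1, at -0.67, lie left of the dotted line that marks a 1.5-fold lower level, and no gene lies right of the other one.

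Gnas (ENSMUSG00000027523, chromosome 2, 174284320 to 174346744, plus strand, GRCm38) had the lowest ratio. It encodes the alpha subunit of the stimulatory G protein, which couples hormone and neurotransmitter receptors to adenylyl cyclase. The row held 306 reads in the transgenic and 763 in the WT library, 17.1 against 43.5 CPM, so it was 2.54-fold lower (2.22 to 2.91). One annotated gene covers several transcripts that begin at different promoters and differ in imprinting: maternal Nesp at the upstream end, paternal XL-alpha-s, the paternal untranslated exon 1A, and Gs-alpha itself, which is expressed from both copies in most tissues. The count is a total over these. RefSeq promoter windows of 300 bases (250 before to 50 after the start, GRCm38.p6, plus strand) are shown for 3 of the starts because they differ in CpG content, with each CG in capitals: 16 CG at the upstream start (chr2:174284070-174284369), 28 at the exon 1A start (chr2:174327518-174327817) and 40 at the Gs-alpha start (chr2:174329756-174330055).
Gnas, upstream start: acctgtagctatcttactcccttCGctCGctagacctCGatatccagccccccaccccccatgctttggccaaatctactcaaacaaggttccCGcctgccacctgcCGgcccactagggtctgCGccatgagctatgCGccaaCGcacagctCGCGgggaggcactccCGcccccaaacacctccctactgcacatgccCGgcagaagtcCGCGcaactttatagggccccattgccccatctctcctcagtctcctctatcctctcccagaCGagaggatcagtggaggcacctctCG
Gnas, exon 1A start: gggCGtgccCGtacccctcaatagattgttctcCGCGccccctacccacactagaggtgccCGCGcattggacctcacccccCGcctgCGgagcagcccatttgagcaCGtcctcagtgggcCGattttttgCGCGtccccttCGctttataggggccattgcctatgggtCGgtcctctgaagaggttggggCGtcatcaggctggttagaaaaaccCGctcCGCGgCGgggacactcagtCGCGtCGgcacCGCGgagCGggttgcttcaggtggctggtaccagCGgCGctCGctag
Gnas, Gs-alpha start: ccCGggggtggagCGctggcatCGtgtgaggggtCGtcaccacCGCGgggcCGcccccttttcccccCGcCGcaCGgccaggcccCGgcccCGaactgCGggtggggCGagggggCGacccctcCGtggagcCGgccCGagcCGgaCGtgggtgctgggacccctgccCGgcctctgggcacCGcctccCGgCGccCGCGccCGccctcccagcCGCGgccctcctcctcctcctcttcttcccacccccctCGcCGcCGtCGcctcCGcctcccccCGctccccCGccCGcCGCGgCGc

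The Gnas row cannot be read as Gs-alpha. In GENCODE M21 the gene has 11186 exonic bases, of which 1469 are shared with Gm20721, a predicted gene on the minus strand, and 988 with Nespas. Counters such as HTSeq by default count no read that falls on exons of 2 genes, and a count without strand treats genes on opposite strands as overlapping. The coding transcripts that begin at or near the Gs-alpha start, 45686 and 45769 bases into the gene, have 80.4% and 85.4% of their length on bases shared with Gm20721, in all 11 of 11 and 12 of 12 exons. Those that begin at 13539 bases, where XL-alpha-s starts, share between 0% and 36.2%, and the 1 that begins at exon 1A shares 37.6%. Those from the upstream start share 48.0%, 66.3% and 94.8% once bases of Nespas are counted too. Gm20721 itself had 1 read in each library. Whether strand was used in counting is not stated, and how much of the 2.54-fold difference belongs to which transcript was not tested.

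**Figure D3:**
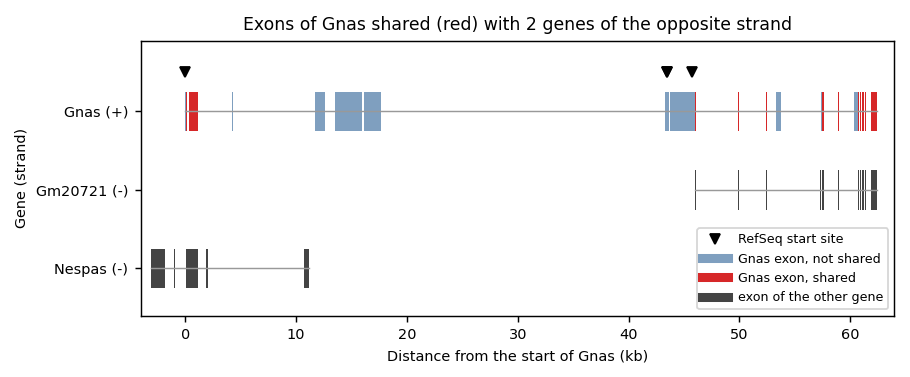
Exons of Gnas, Gm20721 and Nespas by distance from the start of Gnas (kb), with the strand in brackets. Red parts of Gnas exons lie on bases that a gene of the other strand also uses, and they cover most exons right of 45 kb; triangles are RefSeq start sites.

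The Dlk1-Dio3 domain on chromosome 12 held genes on both sides of 1. Its paternal copy expresses Dlk1, Rtl1 and Dio3, and its maternal copy the noncoding RNAs Meg3, Rian and Mirg, which host many small RNAs. Rtl1 (ENSMUSG00000085925, chromosome 12, 109589193 to 109600330, minus strand) derives from a retrotransposon and is known for its role in placental capillaries. It had 55 reads in the transgenic and 86 in the WT library, 3.08 against 4.90 CPM, and was 1.59-fold lower (1.12 to 2.27). The maternal copy makes 6 miRNA hairpins from the strand opposite to Rtl1. RefSeq (GRCm38.p6) lists 11 mature miRNAs of these, all 11 are exactly complementary to the Rtl1 transcript, and they have 11 different seeds. Of the 11, 5 are shown as examples, with the seed (bases 2 to 8) in capitals. They lie on the plus strand at chr12:109590459-109590479, chr12:109591781-109591802, chr12:109592888-109592909, chr12:109594565-109594586 and chr12:109595331-109595352, in the order given.
mmu-miR-431-5p: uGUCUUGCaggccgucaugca
mmu-miR-433-3p: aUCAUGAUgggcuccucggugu
mmu-miR-127-3p: uCGGAUCCgucugagcuuggcu
mmu-miR-434-3p: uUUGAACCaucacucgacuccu
mmu-miR-136-5p: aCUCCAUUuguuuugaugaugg

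Mature miRNAs were not measured, so the level of this antisense strand is known only through longer RNAs of the domain. Meg3 (chromosome 12, 109541001 to 109571726, plus strand), a noncoding RNA with tumour suppressor activity, had 13845 against 16632 reads, a 1.22-fold lower level (1.20 to 1.25). Rian, which carries small nucleolar RNAs, had 7507 and 7422 reads, a ratio of 0.994 (0.962 to 1.03). Mirg, whose span contains 14 miRNA hairpins on its strand, had 318 and 349. The intervals of Meg3 and Rian did not overlap, and that of Mirg, 0.767 to 1.05, overlapped both. In the WT library the neuronal genes were also higher, as given above, and their part in the value of Meg3 was not tested.

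Dlk1 (chromosome 12, 109452823 to 109463336, plus strand), a membrane protein related to Notch ligands that is linked to progenitor maintenance, had 948 against 771 reads, a 1.21-fold higher level (1.10 to 1.33). Dio3, the deiodinase that inactivates thyroid hormone, had 242 against 176 reads, a 1.35-fold higher level (1.11 to 1.65). Paternal genes of the domain thus lay above 1 at both ends and, at Rtl1, below it in between. The Dlk1 promoter window (chr12:109452573-109452872, plus strand) is shown because it holds 2 copies of GTAAACA, the forkhead core motif, both on the minus strand, so that the printed strand reads TGTTTAC (capitals).
Dlk1: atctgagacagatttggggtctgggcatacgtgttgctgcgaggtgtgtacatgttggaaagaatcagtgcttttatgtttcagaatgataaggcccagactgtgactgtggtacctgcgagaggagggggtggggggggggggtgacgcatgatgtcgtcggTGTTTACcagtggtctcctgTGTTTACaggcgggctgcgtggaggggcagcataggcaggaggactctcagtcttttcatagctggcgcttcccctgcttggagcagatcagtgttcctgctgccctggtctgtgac

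**Figure D4:**
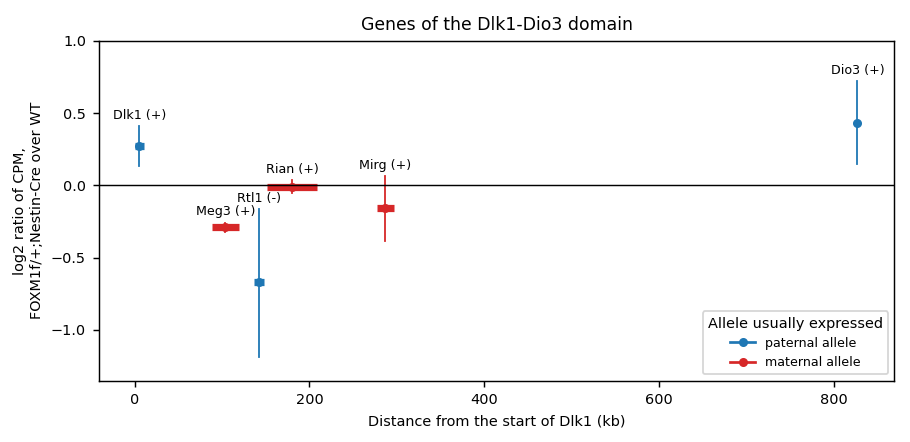
Log2 ratio of CPM, FOXM1f/+;Nestin-Cre over WT, of the 6 genes of the Dlk1-Dio3 domain against distance from the start of Dlk1 (kb), with 95% counting intervals as vertical lines and gene spans as thick horizontal lines. Dlk1 and Dio3 lie above 0 and Rtl1 and Meg3 below it; the intervals of Rian and Mirg cross it.

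The same search was made on both strands in RefSeq promoter windows of the imprinted genes. Windows on chromosome 18, where Impact lies, were left out of these but kept in the set of all windows. That gave 51 windows of 35 of the 42 listed genes, Phlda2 among them. GTAAACA was found in 3.92% of these windows, those of Dlk1 and Mkrn3, and in 3.65% of all 32851 windows of the same length. TTTGAA, the core of the cell cycle genes homology region bound by complexes that include FOXM1, was in 17.6% of imprinted and 17.9% of all windows. TGCCGC, the motif bound by the imprint keeper ZFP57 when methylated, was in 23.5% of imprinted and 11.6% of all windows. The 12 imprinted windows with it belong to 11 genes: Grb10, Plagl1, Mest, Igf2, Meg3, Nnat, Mcts2, Copg2, Zim1, Snrpn and Commd1. Those of Mest, at starts 30738050 and 30738053, nearly coincide. Imprinted windows held a median of 15 CG and all windows 7, and TGCCGC itself contains a CG. The motifs do not overlap one another, and a match is letters in a window, not a bound site.

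Of the growth genes, the ligand Igf2 and its noncoding neighbour H19 were both lower. Igf2 (ENSMUSG00000048583, chromosome 7, 142650766 to 142666816, minus strand), the fetal insulin-like growth factor, had 1110 reads in the transgenic and 1410 in the WT library and was 1.29-fold lower (1.19 to 1.40). H19 (chromosome 7, 142575529 to 142578143, minus strand) had 973 against 1201 reads, a 1.26-fold lower level (1.15 to 1.37). These 2 genes share enhancers and are expressed from opposite parental copies, and here both totals were lower. Igf2 shares 64.5% of its exonic bases with other annotated genes, mainly the predicted gene Gm49394, which was not analysed here.

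In the brain Igf2 is known to be made in the choroid plexus, meninges and vessels, and markers of these tissues were read out beside it. For comparison, 16.5% of the intervals of all genes lay above 1 and 19.2% below. The 11 choroid plexus genes with a row summed to 31.5 against 729 CPM, and of the 8 that passed the minimum 7 intervals lay below 1 and 1 spanned it. Ttr, the thyroid hormone carrier of the plexus, had 177 and 11255 reads, Otx2, a homeobox factor, 211 and 223, and Cldn2, a tight junction protein, 0 and 17. The 13 meningeal and pericyte genes with a row summed to 118 against 149 CPM, and of the 11 past the minimum 6 intervals lay below, 1 above and 4 spanned 1. Of these, Rgs5 had 896 and 1049 reads and Pdgfrb 349 and 372. The 11 endothelial genes with a row summed to 152 against 175 CPM. Of the 10 past the minimum, 3 intervals lay below and 7 spanned 1, and Cldn5 had 813 and 854 reads and Kdr 438 and 512. No meningeal or endothelial marker was at 0. In bulk RNA, fewer cells of a type and less RNA per cell cannot be told apart, and the part of these tissues in the values of Igf2 and H19 was not tested.

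Igf2r, which clears IGF2 from the cell surface, had 883 and 877 reads, a ratio of 0.989 (0.900 to 1.09). Grb10 (ENSMUSG00000020176, chromosome 11, 11930508 to 12038683, minus strand), an adaptor that dampens insulin and IGF receptor signalling, had 4095 against 3006 reads, 229 against 171 CPM, and was 1.34-fold higher (1.28 to 1.40). Cdkn1c (chromosome 7, 143458339 to 143461050, minus strand), a cyclin-dependent kinase inhibitor that limits progenitor division, had 1105 against 819 reads, a 1.33-fold higher level (1.21 to 1.45). Plagl1, a zinc finger factor of the imprinted gene network, had 1697 against 1514 reads, a 1.10-fold higher level (1.03 to 1.18). Kcnq1ot1, the paternal noncoding RNA that silences Cdkn1c in cis, had 293 and 309 reads, a ratio of 0.932 (0.791 to 1.10). Cdkn1c shares 30.7% of its exonic bases with the antisense RNA Gm44732, which had 0 and 6 reads, so its count too depends on how overlaps were treated.

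Grb10 is expressed from the maternal copy in most tissues and from the paternal copy in neurons, through different promoters. Windows of 2 RefSeq starts (GRCm38.p6, minus strand) are shown with each CG in capitals, because the row is a total over such starts: the start at 12037420 (chr11:12037371-12037670) has 45 CG, the most among the windows printed, and the start at 12027971 (chr11:12027922-12028221) has 9.
Grb10, start at 12037420: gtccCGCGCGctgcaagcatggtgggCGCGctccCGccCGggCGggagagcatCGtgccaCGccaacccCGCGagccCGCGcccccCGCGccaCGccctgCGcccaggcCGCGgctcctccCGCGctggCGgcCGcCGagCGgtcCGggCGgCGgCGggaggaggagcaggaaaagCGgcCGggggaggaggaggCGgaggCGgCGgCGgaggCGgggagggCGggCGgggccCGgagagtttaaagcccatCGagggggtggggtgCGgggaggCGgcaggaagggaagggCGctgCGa
Grb10, start at 12027971: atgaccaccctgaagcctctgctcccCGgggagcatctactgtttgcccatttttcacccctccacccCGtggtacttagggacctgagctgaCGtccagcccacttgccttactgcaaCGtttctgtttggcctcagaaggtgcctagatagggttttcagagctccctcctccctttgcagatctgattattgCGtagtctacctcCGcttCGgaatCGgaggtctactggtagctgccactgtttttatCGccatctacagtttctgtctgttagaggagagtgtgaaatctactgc

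Other genes of the insulin-like growth factor axis were measured for 14 of 17 listed, with 2 intervals above, 4 below and 8 spanning 1. Over all genes, 16.5% of intervals lay above 1 and 19.2% below. Igfbp2, a binding protein that holds IGFs outside the cell, had 3272 against 4612 reads, a 1.43-fold lower level (1.37 to 1.5). Igfbp3 was 1.25-fold lower (1.12 to 1.39) and Igfbp5 1.16-fold lower (1.08 to 1.26), while Igf2bp1, which binds Igf2 mRNA, was 1.20-fold higher (1.11 to 1.31). Igf1, singled out after its values were seen as the 1 gene of the axis at least 1.5-fold lower, had 26 against 47 reads. The axis had a median log2 ratio of -0.03, near that of all genes.

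Within the Snrpn-Ube3a domain, whose paternal loss causes Prader-Willi syndrome, 3 intervals lay above 1 and 3 spanned it. For comparison, 16.5% of the intervals of all genes lay above 1 and 19.2% below. Magel2, a regulator of protein recycling in hypothalamic neurons, had 827 against 627 reads, a 1.30-fold higher level (1.17 to 1.44). Peg12, an inhibitor of the kinase GSK3, had 284 against 191 reads, a 1.46-fold higher level (1.21 to 1.76), the largest ratio of the 37 genes. Ndn had 9875 against 9131 reads, a 1.06-fold higher level (1.03 to 1.09). On the other side of the domain, Snrpn, a splicing protein, had 907 and 953 reads. Ube3a, a ubiquitin ligase expressed from the maternal copy in neurons, had 1048 and 1078. Snrpn shares 34.1% and Ube3a 27.3% of their exonic bases with other annotated genes, so these counts too depend on how overlaps were treated. Mkrn3, a ubiquitin ligase that restrains puberty, lies between Magel2 and Peg12 and had 252 and 291 reads, with an interval from 0.716 to 1.01. The 6 measured hypothalamic genes had 1 interval above 1 and 5 spanning it, with 1390 and 1219 reads of Nkx2-1 and 194 and 155 of Fezf1.

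In the Peg3 domain the intervals of all 3 genes spanned 1. Peg3, a zinc finger protein of growth and maternal behaviour, had 1709 and 1602 reads, Usp29, a ubiquitin protease, 811 and 866, and Zim1, a maternally expressed zinc finger gene, 152 and 158. The Peg10-Sgce domain had 1 interval below 1, that of Ppp1r9a, which encodes the actin-binding neurabin of spines, with 1156 against 1258 reads, 1.11-fold lower (1.02 to 1.20). Its other genes were the retrotransposon-derived Peg10 with 2203 and 2081 reads, the epsilon sarcoglycan Sgce with 553 and 607 and the maternally expressed Asb4 with 258 and 231. These domains were thus close to level between the libraries.

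Mest, a hydrolase-like protein expressed from the paternal copy, had 1675 against 1504 reads, a 1.09-fold higher level (1.02 to 1.17). Copg2, a coatomer subunit that overlaps Mest tail to tail over 912 exonic bases, had 1263 and 1177 reads. Nnat was 1.08-fold higher (1.07 to 1.09), a small difference with a narrow interval because of its 82445 and 74893 reads, and Blcap, the gene that contains it, had 2733 and 2569. Mcts2, a translation factor retrogene inside H13, had 318 against 248 reads, a 1.26-fold higher level (1.06 to 1.49). Its X-linked source gene Mcts1 had 816 and 785 reads, and reads can be split between such copies. The other retrogene, Zrsr1, had 171 and 185 reads, and its host Commd1, a regulator of copper and of NF-kappaB, 55 and 51.

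Inpp5f, a phosphoinositide phosphatase with a brain-specific paternal isoform, had 4410 against 5181 reads, a 1.20-fold lower level (1.15 to 1.25). Rasgrf1, an exchange factor that links calcium to Ras in neurons, had 203 against 257 reads, a 1.29-fold lower level (1.07 to 1.56). Impact, a regulator of translation in neurons, had 462 and 490 reads. Of the 12 neuronal markers 10 had intervals below 1, none above and 2 spanning it, with a median log2 ratio of -0.14. Of 12 genes of cycling progenitors 10 lay above and 2 spanned 1, with a median of 0.33 and sums of 2612 against 2090 CPM. Vim had 14163 against 10521 reads and Nes 6846 against 5457. For comparison, 16.5% of the intervals of all genes lay above 1 and 19.2% below. Intervals of genes with many reads exclude 1 at small differences, as for Tubb3 at a ratio of 0.985. The part of neurons and progenitors in the values of imprinted genes was not tested. Of the 8 erythroid genes 5 intervals lay above 1 and 3 spanned it, with 7946 against 4604 reads of Hba-a1 and 3194 against 499 of Hbb-y.

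The genes were then grouped by the allele usually expressed; over all genes 16.5% of intervals lay above 1 and 19.2% below. Of 21 paternal genes, 9 intervals lay above, 3 below and 9 spanned 1, with a median log2 ratio of 0.06. Of 7 maternal genes, 1 lay above, 2 below and 4 spanned 1, with a median of -0.08. Of 9 genes whose allele differs by tissue or isoform, 1 lay above, 3 below and 5 spanned 1, with a median of -0.02 that lay at or just above 0 under either other scaling. Neighbours in a domain share control regions and are not independent, and whether the groups differ was not tested. By kind of RNA, the 5 noncoding genes (Meg3, H19, Rian, Mirg and Kcnq1ot1) had 2 intervals below 1 and none above, and all 5 ratios lay below 1, although Rian, at a log2 ratio of -0.01, moved to 0.01 with TMM and 0.02 with RLE scaling. The intervals of the other 3 spanned 1, and Meg3, Rian and Mirg lie in 1 domain. Among all 98 noncoding genes that averaged at least 15 CPM, 26 intervals lay above and 22 below 1, and 47 ratios lay below 1. The 32 protein-coding imprinted genes had 11 intervals above and 6 below.

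A second list held 45 further genes described as imprinted in mouse, many of them only in placenta or weakly, of which 30 were measured. Of these, 1 interval lay above 1, against 16.5% of all genes, 10 below, against 19.2%, and 19 spanned it. The median log2 ratio was -0.13, against -0.01 for all genes, and whether this list differs from other genes was not tested. Smoc1, a matrix protein, had 378 against 542 reads, a 1.46-fold lower level (1.28 to 1.67), and Adam23, a neuronal adhesion protein, was 1.30-fold lower (1.14 to 1.48). Peg13, a noncoding RNA of brain, was 1.09-fold lower (1.05 to 1.14) and Begain, a postsynaptic protein beside Dlk1, 1.15-fold lower (1.07 to 1.24). Calcr, singled out after its values were seen as the 1 gene at least 1.5-fold lower, had 18 against 28 reads.

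Of 18 measured genes that keep or read imprints, 3 intervals lay above 1, 3 below and 12 spanned it. Over all genes 16.5% of intervals lay above 1 and 19.2% below. The list stood near these shares, so its counts are no result about it. The maintenance methyltransferase Dnmt1 had 3888 and 3875 reads and its cofactor Uhrf1 2180 against 1658, 1.29-fold higher (1.21 to 1.38). Hells, a chromatin remodeller of dividing cells that aids DNA methylation, had 719 against 438 reads, a 1.61-fold higher level (1.43 to 1.82), the 1 gene of the list past 1.5-fold. Zfp57, which protects methylated imprints, was 1.09-fold lower (1.05 to 1.13) and Zfp445, which acts with it, 1.11-fold lower (1.05 to 1.18).

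**Figure D5:**
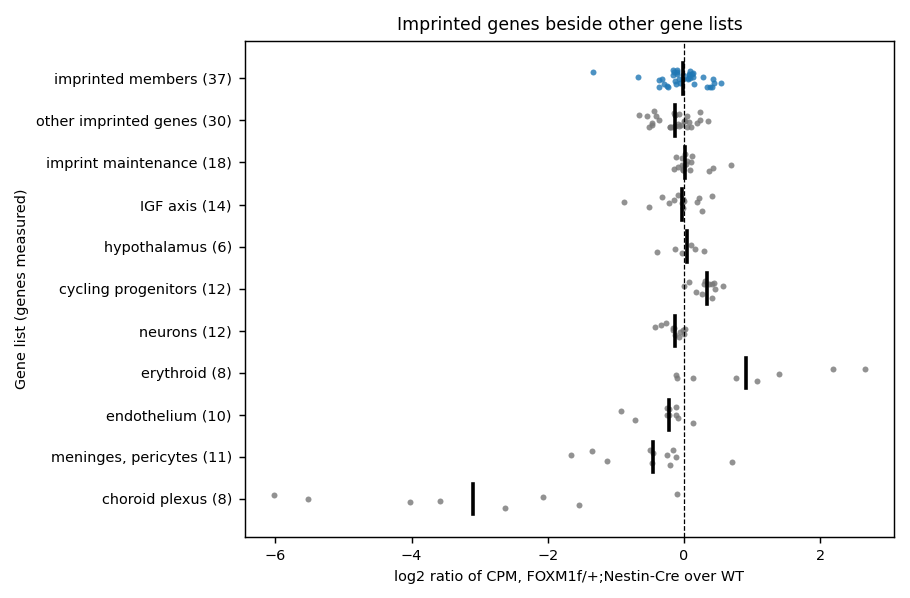
Log2 ratio of CPM, FOXM1f/+;Nestin-Cre over WT, for each measured gene (points) of the imprinted genes and 10 other lists, with the number measured in brackets, the list median (black bar) and the median of all genes (dashed line). The imprinted genes centre on the dashed line, with a median of -0.02, while the choroid plexus markers, with a median of -3.10, lie far to its left and the erythroid and cycling progenitor markers to its right.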

How the data were processed

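Total RNA of E15 brain was sequenced on an Illumina instrument. Per the submitters' processing notes, Bowtie2 2.2.3, TopHat2 2.0.12 and HTSeq 0.6.0 were used on mm9, but 91.7% of the table's gene IDs in GENCODE M21 (GRCm38) have its start and end. Annotation release and strand setting: not given in the sources used here. Per the file headers, the authors deposited 1 column of raw read counts and 1 of normalized values per genotype. The deposited normalized values are CPM on 17859653 and 17547268 reads, with a count of 0 entered as 0.5 reads. The authors' fold ratio, log2 ratio and p-values compare these 2 columns, and their test is not stated.

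An edgeR test was planned for replicate columns. With 1 column per genotype it was not run, and ratios of the authors' CPM with exact conditional (Clopper-Pearson) 95% intervals took its place, where a gene averaged at least 1 CPM. Reads are not independent molecules, so intervals cover counting error only. Each library resolves 1 read as 0.0560 (transgenic) or 0.0570 CPM (WT). A gene was called at 1.5-fold, and an interval wholly on one side of 1 was counted separately. The imprinted genes, their grouping and the other lists were chosen with earlier results of these data known. Every imprinted gene is named with its reads. Of the other imprinted, imprint regulator and IGF lists, up to 4 genes are named by log2 ratio relative to counting error, and of marker lists up to 2 by mean CPM; other genes of these lists were chosen after their values were seen. Alternatives were TMM and RLE scaling, other minimum levels, a 2-fold call, the interval as call, and leaving out overlapping genes. The interval calculation was checked on simulated counts that held counting error only, so the check does not cover the spread between animals or overlapping genes. Exonic lengths and overlaps come from GENCODE M21, and promoter and miRNA sequences from RefSeq, GRCm38.p6. Python 3.11.15, NumPy 2.4.6, pandas 2.3.3, SciPy 1.17.1, Matplotlib 3.10.9, R 4.3.3 and edgeR 4.0.16 (scaling factors) were used.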

Additional observations from a re-analysis of the deposited data

How the results depend on the processing

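The count of imprinted genes at least 1.5-fold higher, 0, was 11 with the counting interval as the call. The count at least 1.5-fold lower, 2, was 8 with the interval as the call, 4 with no expression minimum (41 genes, adding Nespas and Slc22a18), 1 with a mean of at least 10 CPM (34 genes), 1 with a fold of at least 2, 0 without genes whose span overlaps another gene (10 genes left) and 1 with at most 10% of exonic bases shared (28 genes; added after seeing the data). Without overlapping genes the intervals above 1 were 4 and those below 1 were 1, among 10 genes. The median log2 ratio, -0.02, was 0.000397 with TMM scaling, 0.00989 with RLE scaling and 0.10 without overlapping genes. These scalings shifted every log2 ratio by 0.02 and 0.03, and under both of them 19 ratios lay above 1 and 18 below, against 17 and 20 on the authors' CPM. The log2 ratio of Nnat, 0.11, was 0.13 with TMM and 0.14 with RLE, outside its narrow counting interval, and the other 40 genes stayed within theirs. Gnas could be called only where overlapping genes were kept. No paired analysis was possible because the table has 1 column per genotype with no replicate number, and for that reason no library could be left out in turn. Genes with few reads, such as Rtl1, have wide intervals, and the spread between animals is not known.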

Other observations

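Genes that lie inside the spans of the imprinted domains but are not on either list of imprinted genes, or only on the second, were read out as well. Of 20 that averaged at least 1 CPM, 3 stood 1.5-fold or more above their WT level, against 2.53% of all genes, and 2 as far below it, against 5.23%. Of their intervals, 3 lay above 1, against 16.5% of all genes, 1 below, against 19.2%, and the others spanned it. Most of the 20 are noncoding RNAs or pseudogenes, many with few reads. Of 698 noncoding genes past the same minimum, 80 stood 1.5-fold or more higher and 72 as far lower. The counts are therefore no result about the domains. In the Dlk1-Dio3 domain, the unnamed lincRNA AC091458.5 had 49 against 27 reads, a ratio of 1.78 (1.09 to 2.97). The RNA AL591207.3, which starts beside Dio3 on the opposite strand, had 72 against 42 reads, a ratio of 1.68 (1.14 to 2.53), and Dio3 itself had a ratio of 1.35 (1.11 to 1.65). In the Snrpn-Ube3a domain, Snhg14, the host of small nucleolar RNAs whose paternal transcript runs antisense to Ube3a, had 863 against 758 reads. Its ratio was 1.12 (1.01 to 1.23), and Ube3a had 1048 against 1078 reads. Ube3a shares 1803 exonic bases with Snhg14, so both counts depend on how overlaps were treated. In the Kcnq1ot1 domain, Trpm5, a cation channel of taste and other chemosensory cells, had 6 against 37 reads, a ratio of 0.159 (0.0550 to 0.381). All 4 were chosen after their values were seen.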
